A study of Mus musculus with 19 samples.

Results

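The comparison set neonatal against adult cardiomyocytes (CMCs) by the 5-hydroxymethylcytosine (5-hmC) carried on each gene. Members were the 15498 autosomal protein-coding genes of 5 kb or more, out of 20021 autosomal protein-coding genes in the curated RefSeq annotation of mm10. For each gene, the percent of its length that lay under 5-hmC peaks was computed in each of 4 peak lists, neonatal replicates 1 and 2 and adult replicates 1 and 2, which are 4 of the 8 lists of the series. A gene was taken as higher in adult CMCs when both adult values exceeded both neonatal values, and as lower when both lay below. Genes whose replicates overlapped between the stages were left without a direction.

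Both groups were CMCs of untreated C57BL/6J mice. Neonatal CMCs came from the ventricles of pups of 1 to 2 days and adult CMCs from the left ventricle of males of 2 months, so the stage cannot be told apart from the ventricle taken and the way the cells were freed and enriched. 5-hmC-bearing DNA was precipitated with an Active Motif antibody (hMeDIP) and sequenced, and enriched regions were called for each replicate against input DNA. The other lists with peaks were from embryonic CMCs (E14.5) and from adult CMCs 1 week after transverse aortic constriction (TAC), in which the aorta is constricted by surgery to raise the load on the heart.

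The TET dioxygenases make 5-hmC from 5-methylcytosine. Further oxidation and repair can lead back to plain cytosine, and much 5-hmC also persists in cells that no longer divide. In tissues of differentiated cells it is found mostly along the bodies of transcribed genes and at enhancers, and little of it lies at active CpG-rich promoters. Around birth CMCs leave the cell cycle, exchange fetal for adult isoforms of contractile proteins and turn from glucose and lactate to fatty acids as fuel, which is why the results below are ordered by these functions.

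Stretches that lay under both lists of one stage and under neither list of the other show what a difference between the stages was made of. The 4 examples shown, which are among the largest differences in either direction or belong to the contractile genes of the comparison, are printed as 200 bases of coding sequence and adjoining intron within the longest such stretch of the gene. The window was the 200 bases with the most CpG, the dinucleotide in which mammalian DNA carries most of its 5-hmC, so that the density of CpG in it is not a result. Sequences are from the GRCm38 (mm10) reference, read 5′ to 3′ on the strand of the gene, with CpG in capitals. The stretch of Xirp1 held 2948 bp with 82 CpG, that of Myh6 3343 bp with 80 CpG, that of Glul 2763 bp with 64 CpG and that of Dvl2 1434 bp with 37 CpG.
Xirp1, coding exon, chr9:120019472-120019671, minus strand, neonatal peaks only: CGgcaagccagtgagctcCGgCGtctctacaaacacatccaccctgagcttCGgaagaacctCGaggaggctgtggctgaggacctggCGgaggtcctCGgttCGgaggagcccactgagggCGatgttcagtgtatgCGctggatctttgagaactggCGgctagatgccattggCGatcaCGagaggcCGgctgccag
Myh6, coding exon, chr14:54950292-54950491, minus strand, neonatal peaks only: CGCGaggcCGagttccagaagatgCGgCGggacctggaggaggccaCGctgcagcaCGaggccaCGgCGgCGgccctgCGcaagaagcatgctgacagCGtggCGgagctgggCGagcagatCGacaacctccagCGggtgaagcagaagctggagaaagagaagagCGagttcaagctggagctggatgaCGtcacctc
Glul, coding exon, chr1:153907948-153908147, plus strand, adult peaks only: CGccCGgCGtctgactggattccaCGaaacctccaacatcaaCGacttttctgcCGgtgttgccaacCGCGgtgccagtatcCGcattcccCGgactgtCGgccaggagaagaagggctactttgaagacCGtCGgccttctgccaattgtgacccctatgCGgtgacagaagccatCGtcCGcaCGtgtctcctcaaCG
Dvl2, intron and coding exon, chr11:70006361-70006560, plus strand, adult peaks only: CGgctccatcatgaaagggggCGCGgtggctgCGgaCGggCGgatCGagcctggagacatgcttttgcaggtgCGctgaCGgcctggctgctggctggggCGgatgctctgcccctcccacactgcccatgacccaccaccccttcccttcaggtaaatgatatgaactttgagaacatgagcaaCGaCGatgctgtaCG

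Over all genes, 2353 were higher in adult CMCs (15.2%) and 3064 were lower (19.8%). The lists differ in size, so the percents were also scaled to the total peak base pairs of each list on the autosomes, after which 3952 genes were higher (25.5%) and 2366 lower (15.3%). On both scales together 2351 genes were higher (15.2%) and 2295 lower (14.8%), and these are the genes called higher or lower in what follows. The balance of the directions therefore rested on the scale, with 43.4% of the separated genes higher without scaling and 62.6% with it. Scaling moved the median difference between the stages from -0.02 to 0.21 on the log2 scale.

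The 4 lists can be divided into pairs in 3 ways, and the other 2 ways mix the stages. Without scaling, 5417 genes (35%) were separated by stage, 3995 (25.8%) by replicates 2 against replicates 1, and 2614 (16.9%) by neonatal 1 with adult 2 against neonatal 2 with adult 1. With scaling, the numbers were 6318 (40.8%), 3502 (22.6%) and 3039 (19.6%). On both scales together they were 4646 (30%), 2511 (16.2%) and 2017 (13%). The stage separated the most genes on either scale, which is the smallest p that an exact one-sided permutation test over 3 divisions can give (p = 0.333). The division by replicate number also follows a difference between the files, since by their headers the tags of the precipitated DNA were normalised to input in both replicates 2, and those of input to the precipitated DNA in both replicates 1.

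**Figure D1:**
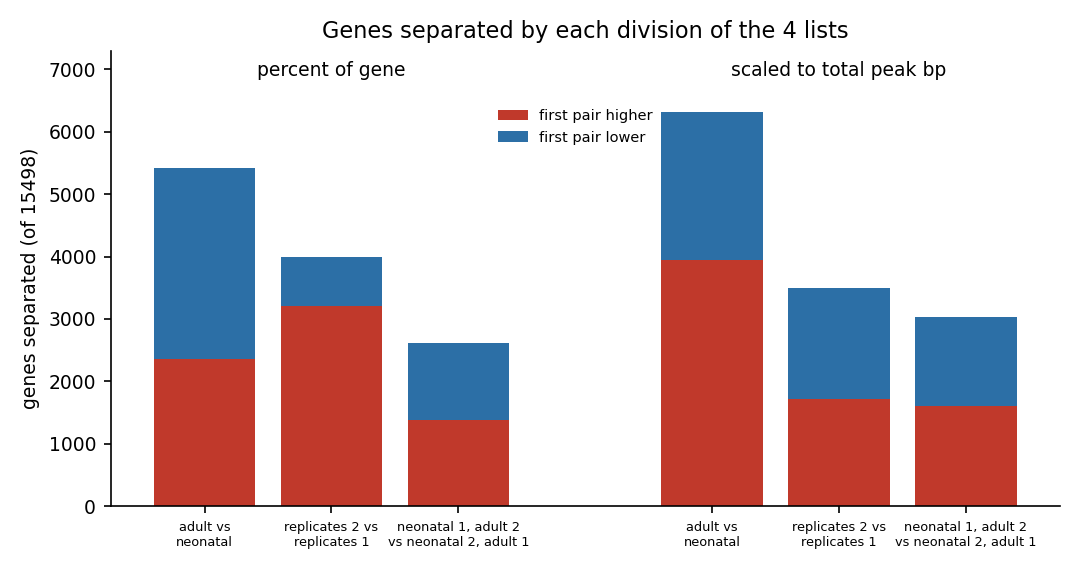
Number of genes (vertical axis, of 15498) whose values were separated without overlap when the 4 lists were divided into pairs in each of the 3 ways, for the percent of the gene under peaks (left) and after scaling to total peak base pairs (right). Red and blue parts give the genes in which the first-named pair was higher or lower, and the division by stage is the tallest bar of each set, with 5417 and 6318 genes.

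The neonatal lists held 134863 and 151247 autosomal peaks and the adult lists 103752 and 120808 (exact two-sided permutation test, p = 0.333, the smallest that 2 against 2 allows). Peaks covered 96 and 117 Mb in neonatal and 75.9 and 96.8 Mb in adult CMCs, which overlap. A larger share of the adult peak base pairs lay inside the genes, 68.2% and 67.5%, than of the neonatal ones, 58.7% and 57.8% (difference 9.6 percentage points, exact two-sided permutation test, p = 0.333). The mean gene was under peaks for 7.1% and 8.52% of its length in neonatal and 7.11% and 9.54% in adult CMCs. The number of reads behind the lists is not known.

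A fit across the genes with enough coverage found no gene past its threshold. In limma on log2(percent + 1), 0 of 12848 genes with a mean of at least 1% were higher and 0 lower at an adjusted p of 0.05 (0% each), with 689 higher and 692 lower at an unadjusted p under 0.05 and a smallest adjusted p of 0.165. Without that filter, limma called 30 higher and 90 lower of 15498 genes at an adjusted p of 0.05. The genes below were chosen by non-overlap and not by these calls, and they are described by their values and by whether the replicates overlapped. The gene lists are described by counts set beside the rates over all genes, 15.2% higher and 14.8% lower. Of the genes named below, the difference between stage means turned sign in Adcy6, Nos3 and Tet2 when equal numbers of peaks were drawn from the lists. It did so in Acadvl, Fh1, Klf9, Foxo3, Cox4i1, Rbpms, Tpm1, Eif4ebp1 and Tet2 when peak centres per kb took the place of coverage. Angpt2, Fabp3 and Nos3 overlap another gene, whose peaks cannot be told apart from theirs.

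The largest differences toward lower coverage in adult CMCs included Ankrd23, Xirp1 and Perm1. Ankrd23, a titin-binding ankyrin repeat protein of the sarcomere, lay under peaks for 86.7% and 87.3% of its 6.36 kb in neonatal CMCs and for 28.9% and 13.7% in adult CMCs. Xirp1, which encodes the actin-binding protein Xin of the intercalated disc, went from 54.1% and 65% to 1.5% and 4.36%. Perm1, a muscle regulator of oxidative metabolism, had 54.3% and 70.4% in neonatal and 3.62% and 13.5% in adult CMCs. In each of these genes the lower neonatal value stood more than 20 percentage points above the higher adult value, and limma gave log2 differences of -2.07 ± 0.42 (SE) for Ankrd23, -4.04 ± 0.49 for Xirp1 and -2.94 ± 0.68 for Perm1 (limma adjusted p = 0.278, 0.165 and 0.325). The other genes of the 8 largest differences in this direction were Cish, a suppressor of cytokine signalling, the carnitine palmitoyltransferase gene Cpt1b, the mitochondrial carrier Slc25a34, the desaturase Scd2 and the respiratory chain gene Cox4i1.

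The largest higher coverage was found over genes of other kinds. Mul1, a ubiquitin ligase of the outer mitochondrial membrane, lay under peaks for 24.8% and 0% in neonatal and 64.1% and 79% in adult CMCs. Glul, the glutamine synthetase gene, had 1.19% and 13.6% in neonatal and 64.7% and 55.2% in adult CMCs. Dvl2, a signal transducer of the Wnt pathway, had 13.3% and 17.8% against 63.1% and 76.4% (log2 difference 2.10 ± 0.24 SE, limma adjusted p = 0.165). Dusp18, Sik1, Usf1 and Ndufv1 were also among the largest differences in this direction, and each of these 7 genes had at least 38.8% of the gene under peaks in both adult lists, where no neonatal value passed 31.7%.

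**Figure D2:**
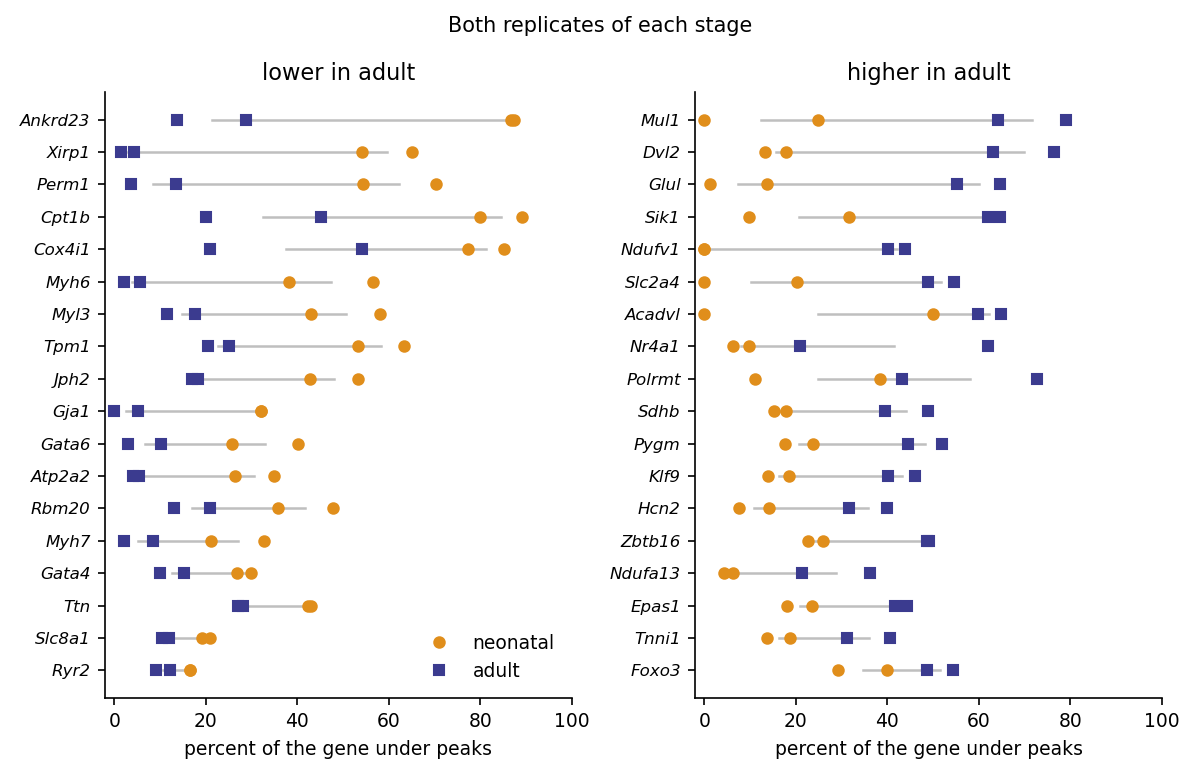
Percent of the gene under 5-hmC peaks (horizontal axes) in both replicates of neonatal (orange circles) and adult CMCs (blue squares) for 18 genes lower (left) and 18 genes higher (right) in adult CMCs, with a grey line between the stage means. In every row the circles and squares do not overlap, which is the rule by which the genes were called. The lower genes run from Ankrd23 with 87 ± 0.411% in neonatal and 21.3 ± 10.8% in adult CMCs (mean ± SD, n = 2) to Ryr2 with 16.6% and 10.6%.

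Genes of the sarcomere were mostly lower or without direction in adult CMCs. Of 30 sarcomere genes measured, 4 were higher and 11 lower. Their median difference was -3.45 percentage points without scaling, beside 0 over all genes, and -0.766 with scaling, beside 0.311. The mixed groupings, again on both scales together, separated 4 and 2 of them. Without scaling the counts were 4 higher and 13 lower, and with scaling 8 and 11. Myh6, the adult α-myosin heavy chain of the mouse heart, was under peaks for 38.3% and 56.5% in neonatal and 2.03% and 5.65% in adult CMCs (log2 difference -3.41 ± 0.54 SE, limma adjusted p = 0.207). Its neighbour Myh7, the β-myosin heavy chain of the fetal ventricle, had 32.8% and 21.2% against 2.09% and 8.37%, so both isoforms lay on the same side. The coding sequences of this pair are much alike, and reads of low mapping quality were removed before peaks were called. Myl3, the ventricular essential light chain, had 43.1% and 58.1% against 11.6% and 17.7%, and Tpm1, the cardiac tropomyosin, 63.4% and 53.2% against 20.4% and 25%. The giant Ttn gene, which encodes titin, had 120 and 118 kb under peaks in neonatal and 75.6 and 78.2 kb in adult CMCs.

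The 4 sarcomere genes on the opposite side included a troponin and a tropomyosin. Tnni1, the slow skeletal troponin I that the fetal heart uses, was under peaks for 18.6% and 13.7% in neonatal and 40.6% and 31.2% in adult CMCs. Tpm3 had 9.29% and 7.68% against 18.2% and 10.1%, and Myom2, an M-band protein, 9.58% and 13.5% against 15.4% and 19.4%. Among 55 genes of the Z-disc, intercalated disc and costamere, 13 were higher and 15 lower, and the balance turned with the scale from 13 and 21 to 22 and 15. Bag3, a chaperone partner of the Z-disc, had 49% and 54.7% against 21% and 15.6%, while Flnc, the muscle filamin, had 5.84% and 21.6% against 22.9% and 36.6%. Xirp2, a relative of Xirp1, was higher by a small margin, with 2.78% and 1.86% in neonatal and 4.54% and 4.09% in adult CMCs. None of 28 genes of the skeletal muscle programme was higher and 4 were lower, beside 7 and 8 separated by the mixed groupings.

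**Figure D3:**
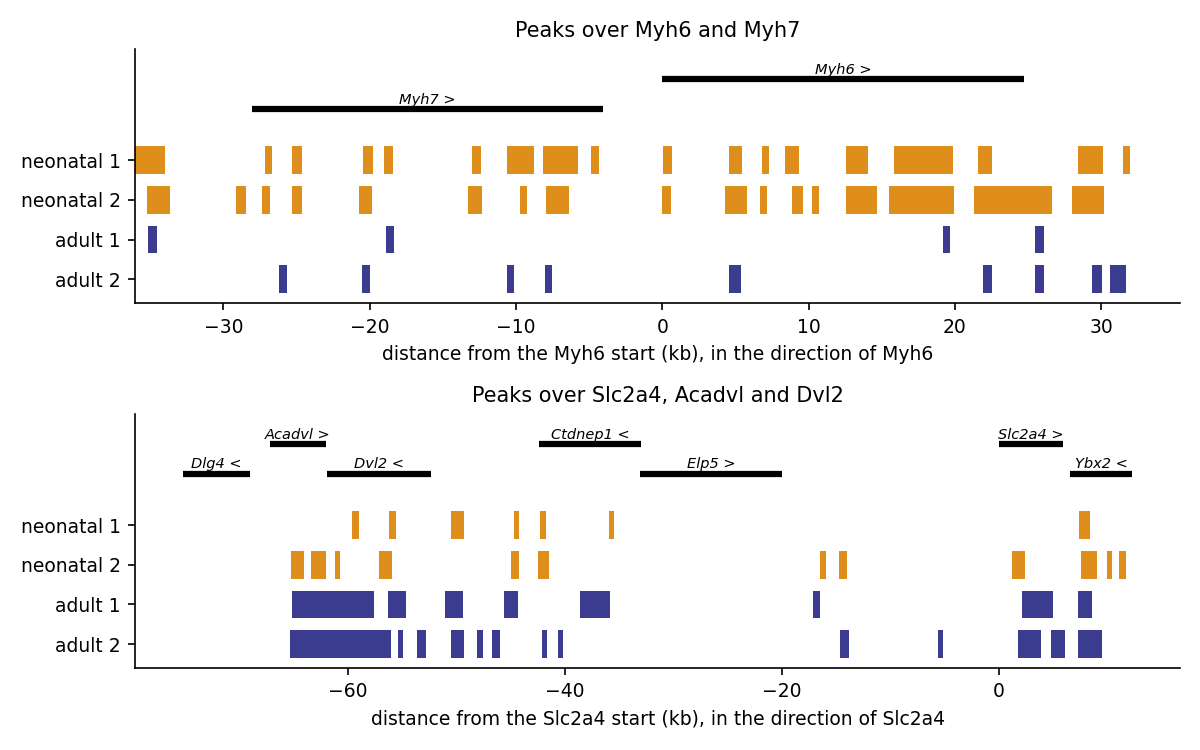
Peaks (bars) of the 4 lists over Myh6 and Myh7 (top) and over Slc2a4, Acadvl and Dvl2 (bottom), with genes in black, arrows for their direction relative to the gene named on the axis, and distance in kb from the start of Myh6 or Slc2a4 on the horizontal axes. Neonatal peaks (orange) covered 9.46 and 13.9 kb of Myh6 and adult peaks (blue) 0.501 and 1.39 kb, whereas a block of adult peaks runs across Acadvl and Dvl2.

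Calcium handling and ion channel genes lay on both sides. Of 37 calcium handling genes 6 were higher and 8 lower, and the balance turned from 6 and 13 without scaling to 12 and 8 with it. Atp2a2, the calcium pump of the sarcoplasmic reticulum, was under peaks for 34.9% and 26.4% in neonatal and 4.11% and 5.36% in adult CMCs. Jph2, which ties the sarcoplasmic reticulum to the T-tubules, had 42.8% and 53.4% against 18.2% and 17.1%. The ryanodine receptor gene Ryr2 had 92 and 91.5 kb under peaks in neonatal and 50.5 and 66.8 kb in adult CMCs, and the sodium-calcium exchanger Slc8a1 76.7 and 69.9 kb against 38 and 44 kb. These 4 genes of the calcium cycle were lower, whereas Tmem38a, a cation channel of the sarcoplasmic reticulum, was higher, with 10.6% and 0% against 14.6% and 30.4%. Of 36 ion channel and connexin genes 9 were higher and 6 lower (9 and 8 without scaling, 14 and 7 with it). The connexin gene Gja1 had 32% in both neonatal lists and 0% and 5.08% in the adult ones, and the pacemaker channel Hcn2 7.66% and 14.1% against 31.7% and 39.9%.

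Genes of fuel use were more often higher than lower. In fatty acid oxidation 16 of 51 genes were higher and 7 lower, against 3 and 7 separated by the mixed groupings (16 and 10 without scaling, 25 and 7 with it). Acadvl, the very long-chain acyl-CoA dehydrogenase, had 0% and 49.9% in neonatal and 59.8% and 64.8% in adult CMCs, a difference in which the neonatal replicates lay far apart. Acacb, which makes the malonyl-CoA that restrains fatty acid import, had 15.7% and 21.5% against 32.2% and 49.6%, and Dgat1, of triglyceride synthesis, 0% in both against 11.4% and 17.9%. Among the 7 genes on the lower side, Cpt1b, which carries long-chain acyl groups into mitochondria, had 79.9% and 89.1% in neonatal and 20.1% and 45.1% in adult CMCs. The fatty acid-binding protein gene Fabp3 had 59.2% and 7.45% against 0% in both adult lists. Etfb, an electron carrier of fatty acid oxidation, had 28% and 47.4% against 7.3% and 19.1%.

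In glucose and glycogen metabolism 11 of 38 genes were higher and 5 lower (11 and 8 without scaling, 16 and 5 with it). Slc2a4, the insulin-responsive glucose transporter of muscle, was under peaks for 0% and 20.3% in neonatal and 48.9% and 54.5% in adult CMCs. Pygm, the muscle glycogen phosphorylase, had 17.6% and 23.8% against 44.6% and 52%, and Gpi1 3.45% and 27.9% against 28.9% and 44.3%. Both enolase genes of the list lay on the other side. Eno3, the muscle enolase, had 47.7% and 65.4% against 33.1% and 0%, and Eno1, the form of embryonic tissues, 36.6% and 39% against 17.7% and 20.5%. The lactate carrier Slc16a1 was lower too, with 20% and 23.9% against 5.06% and 8.22%. In pyruvate and TCA cycle metabolism 9 of 37 genes were higher, among them Pdhb, Ogdh and Fh1, and 3 were lower, Got1 and Dlst among them. The margin was very narrow in Pdhb, with 18.2% and 22.5% against 42% and 22.7%. In that list a mixed grouping separated almost as many genes, 11 of 37 by replicate number beside 12 by stage.

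The respiratory chain list was split. Of 64 genes measured, 18 were higher and 17 lower, so that 35 were separated by stage, against 6 by replicate number and 11 by the crossed grouping. Without scaling the counts were 18 and 18, and with it 19 and 17. Ndufv1, the complex I subunit that takes electrons from NADH, had no peak in either neonatal list and 40.2% and 43.8% in the adult lists. Sdhb, of complex II, had 17.8% and 15.1% against 39.5% and 48.8%, and Ndufa13 6.18% and 4.23% against 21.3% and 36.2%. On the lower side, Cox4i1, a subunit of cytochrome oxidase, had 77.3% and 85.2% against 21% and 54.1%. Cox17, a copper chaperone of the same complex, had 21.9% and 60.8% against 0% in both, and Slc25a3, the phosphate carrier that feeds ATP synthase, 52% and 41% against 6.78% in both. Genes of this list are short, with a median of 9.42 kb, and 31 of its 97 members fell below 5 kb and were not measured.

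Regulators of metabolism were the list with the highest share higher in adult CMCs. Of 43 measured, 18 were higher and 3 lower (18 and 5 without scaling, 25 and 3 with it), beside 5 and 3 separated by the mixed groupings. Klf9, a Krüppel-like factor that responds to glucocorticoids, had 13.9% and 18.5% in neonatal and 46.1% and 40.1% in adult CMCs. Epas1, which encodes the hypoxia factor HIF-2α, had 18.1% and 23.6% against 41.7% and 44.2%, and the orphan nuclear receptor gene Nr4a1 6.3% and 9.74% against 20.9% and 61.9%. Ppara, the fatty acid-sensing nuclear receptor of the heart, was higher by less, with 19% and 22.5% against 28.6% and 23.8%. The 3 genes on the lower side were those of the PGC-1 coactivators and their muscle partner. Ppargc1b had 43.4% and 46.1% against 21.1% and 21.7%, Ppargc1a 12.2% and 15.5% against 6.5% and 8%, and Perm1 was given above. In the insulin, mTOR and AMPK list 11 of 41 genes were higher and 4 lower. Foxo1 had 15.1% and 21.1% against 34.3% and 32.7% and Foxo3 29.2% and 39.9% against 48.7% and 54.3%, while Eif4ebp1, the repressor of cap-dependent translation, had 60.3% and 58.9% against 30.6% and 33.4%.

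Among genes that maintain mitochondria or break down proteins more were higher than lower, and most had no direction. Of 37 genes of mitochondrial dynamics and quality, 14 were higher and 3 lower (14 and 5 without scaling, 21 and 3 with it), beside 4 and 3 separated by the mixed groupings. Polrmt, the mitochondrial RNA polymerase, had 38.4% and 11.1% in neonatal and 43.3% and 72.8% in adult CMCs. The matrix protease genes Lonp1 and Clpp were also higher, Clpp from 0% in both neonatal lists to 13.1% and 14.9%. Dnm1l, the fission dynamin, was lower by a very narrow margin, with 2.14% and 6.73% against 1.07% and 2.07%. In autophagy and proteolysis 13 of 45 genes were higher and 1 lower. Sqstm1, the autophagy receptor p62, had 16.3% and 18.1% against 22.5% and 58.3%, and Gabarapl1 5.48% in both against 33.8% and 18.1%. The lower gene was Asb2, a ubiquitin ligase subunit of muscle, with 42.2% and 47.8% against 25.5% and 27.7%.

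Among chromatin regulators many more genes were higher than lower. Of 79 genes 24 were higher and 1 lower, with a median difference of 1.49 percentage points, and the mixed groupings separated 12 and 10. The counts were 24 and 5 without scaling and 40 and 1 with it. Smarcd3, a BAF complex subunit of heart and muscle, had 0% and 20.9% in neonatal and 31.5% and 48.2% in adult CMCs, and the methyltransferase gene Kmt2b 16.6% and 14.7% against 28.9% and 34.3%. Bmi1, of the Polycomb repressive complex, had no neonatal peak and 18.5% and 13.2% in the adult lists. The lower gene was Hmga2, an architectural protein of embryonic tissue, with 12.3% and 18.2% against 3.59% and 5.61%. By symbol, 13 of 30 histone demethylase and methyltransferase genes (Kdm, Kmt and Setd) were higher and 1 lower.

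The enzymes that write and oxidise DNA methylation showed no balance to one side. Of 19 measured, 2 were higher and 1 lower, fewer than the 4 separated by each mixed grouping, and the counts were 2 and 2 without scaling and 7 and 1 with it. The de novo methyltransferase gene Dnmt3a had 20.8% and 22% against 31.7% and 36.8%. Tet1 was higher, with 6.82% and 7.13% against 8.78% and 10.9%, and Tet2 lower, with 7.56% and 10.9% against 4.93% and 6.92%. Tet3, under peaks for 19.1% and 31.5% in neonatal and 29.3% and 32.7% in adult CMCs, overlapped between the stages before scaling and was higher after it. These values are of 5-hmC on the genes and not of the enzymes.

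Cardiac transcription factors were more often lower than higher before scaling. Of 46 transcription factors of heart development 3 were higher and 9 lower, and the balance went from 3 and 13 without scaling to 10 and 9 with it. Stage separated 12 of them, replicate number 10 and the crossed grouping 2. Gata4 had 29.8% and 26.8% in neonatal and 10.1% and 15.2% in adult CMCs, and Gata6 25.7% and 40.2% against 3.02% and 10.3%. Srf, the serum response factor, had 27.8% and 34.8% against 13.8% and 10%. Mef2a was lower without scaling (11.6% and 11.4% against 7.56% and 6.65%) but overlapped with it, and Mef2c had 8.27% and 9.33% against 8.83% and 8.48%. Among 47 embryonic homeobox and patterning genes 4 were higher and 8 lower, with Pax7 and Pax2 among the lower ones.

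The scale decided the balance for the Hippo, Wnt and TGF-β pathways. In Wnt signalling and planar polarity 9 of 70 genes were higher and 9 lower, with 9 and 15 before and 18 and 10 after scaling, and replicate number separated 16. Dvl2 and Fzd5 were higher and Ror2, a Wnt receptor of developing tissue, was lower, with 30.1% and 33.3% against 10.7% and 15.2%. In TGF-β and BMP signalling 3 of 48 genes were higher and 10 lower (3 and 14 before, 14 and 10 after scaling). Stage separated 13 of them, replicate number 3 and the crossed grouping 10. Bmp10, a ligand of trabeculating myocardium, had 12.8% and 9.08% in neonatal CMCs and no peak in adult ones, and Tgfb2 21.2% and 17.5% against 7.27% and 10.4%. Of 53 genes for ligands and receptors of the Notch, FGF and VEGF systems 5 were higher and 14 lower on both scales together, among the lower Kdr, Angpt2 and Spry4. In adrenergic and hypertrophic signalling 17 of 76 genes were higher and 13 lower, and the counts turned from 17 and 22 to 33 and 13. Adcy6, an adenylyl cyclase of the heart, had 72.2% and 73.8% against 47.8% and 57.9%, and Gnai2, an inhibitory G protein, 24.9% and 21.3% against 34.9% and 45.3%.

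Mean coverage of the cell cycle genes was below that of all genes in each list. Over 91 genes it was 5.45% and 6.02% in neonatal and 3.95% and 5.95% in adult CMCs. Over all genes it was 7.1% and 8.52% in neonatal and 7.11% and 9.54% in adult CMCs. No peak lay on 12 of the 91 in any of the 4 lists, beside 1415 of all 15498 genes. Of the 91 genes 8 were higher and 15 lower, the median difference was 0, and the mixed groupings separated 15 and 14. Cdc6, a replication licensing factor, had 30.4% and 26% against 15% and 7.26%. The licensing factor Cdt1 lay on the other side, with no neonatal peak and 9.79% and 25% in the adult lists.

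In the lists of other cell types and of cell guidance more genes were lower than higher in adult CMCs. In the neural and Schwann list 17 of 27 genes were lower and 2 higher, the largest share of any list, and in guidance and cell adhesion 29 of 75 were lower and 6 higher. Genes of both lists are long, with medians of 422 and 155 kb. Of all genes of 200 kb or more 48.1% were lower on both scales, and of those of 100 to 200 kb 26.8%. The part of gene length in these counts was not tested. Coverage of the neural list was low, with means of 3.74% and 4.17% in neonatal and 2.45% and 4.12% in adult CMCs. The guidance list had means of 9.3% and 11.2% against 8.21% and 12.1%. Syt1, of synaptic vesicles, had 3.37% and 3.8% against 1.26% and 1.83%, and Gria1, a glutamate receptor, 4.11% and 5.37% against 1.7% and 1.86%. Of 40 endothelial genes 13 were lower and 1 higher, of 65 fibroblast and matrix genes 16 were lower and 4 higher, of 45 immune genes 14 were lower and 4 higher, and of 19 smooth muscle and pericyte genes 7 were lower and 1 higher. Replicate number separated 10 of the 40 endothelial genes and the crossed grouping 8, beside 14 by stage. Sox7 and Nos3, genes of endothelial cells, had 10.1% and 31.9% against 7.13% and 0%, and 20.9% and 20.4% against 10.7% and 12.7%. The higher endothelial gene was Plvap, with 0% and 3.57% against 9.95% and 15.8%. By symbol, 19 of 42 collagen genes were lower and 3 higher, and 11 of 32 cadherin and protocadherin genes were lower and 1 higher. These 2 families are long as well, with medians of 110 and 126 kb, and the part of length was not tested there either.

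Among the defining markers of those cell types no endothelial, immune or fibroblast marker was higher. Of 7 endothelial markers 3 were lower and 0 higher, with 57813 and 91321 bp under peaks in neonatal and 45153 and 53946 bp in adult CMCs. Of 4 immune markers 2 were lower, and of 7 fibroblast markers measured 1 was lower, with Col3a1 at 0 in all 4 lists. Mean coverage overlapped between the stages in all 3 sets. It was 7.34% and 13.8% against 7.28% and 8.2% for the endothelial markers. For the immune markers it was 6.93% and 9.22% against 4.89% and 7.76%, and for the fibroblast markers 2.32% and 2.21% against 1.27% and 2.4%. Col1a2 had 1.39% and 0% in neonatal and 0% in adult CMCs, and Vim 5.88% and 0% against 5.88% and 7.35%. Of 3 smooth muscle markers 1 was higher and 2 were lower. The 8 CMC markers had 270186 and 269744 bp under peaks in the neonatal lists and 153608 and 183162 bp in the adult lists, with 5 of them lower, 0 higher and Pln at 0 in all 4. In a preparation of many cells, fewer cells of a type and less 5-hmC per cell cannot be told apart, and the part of other cell types in these counts was not tested.

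**Figure D4:**
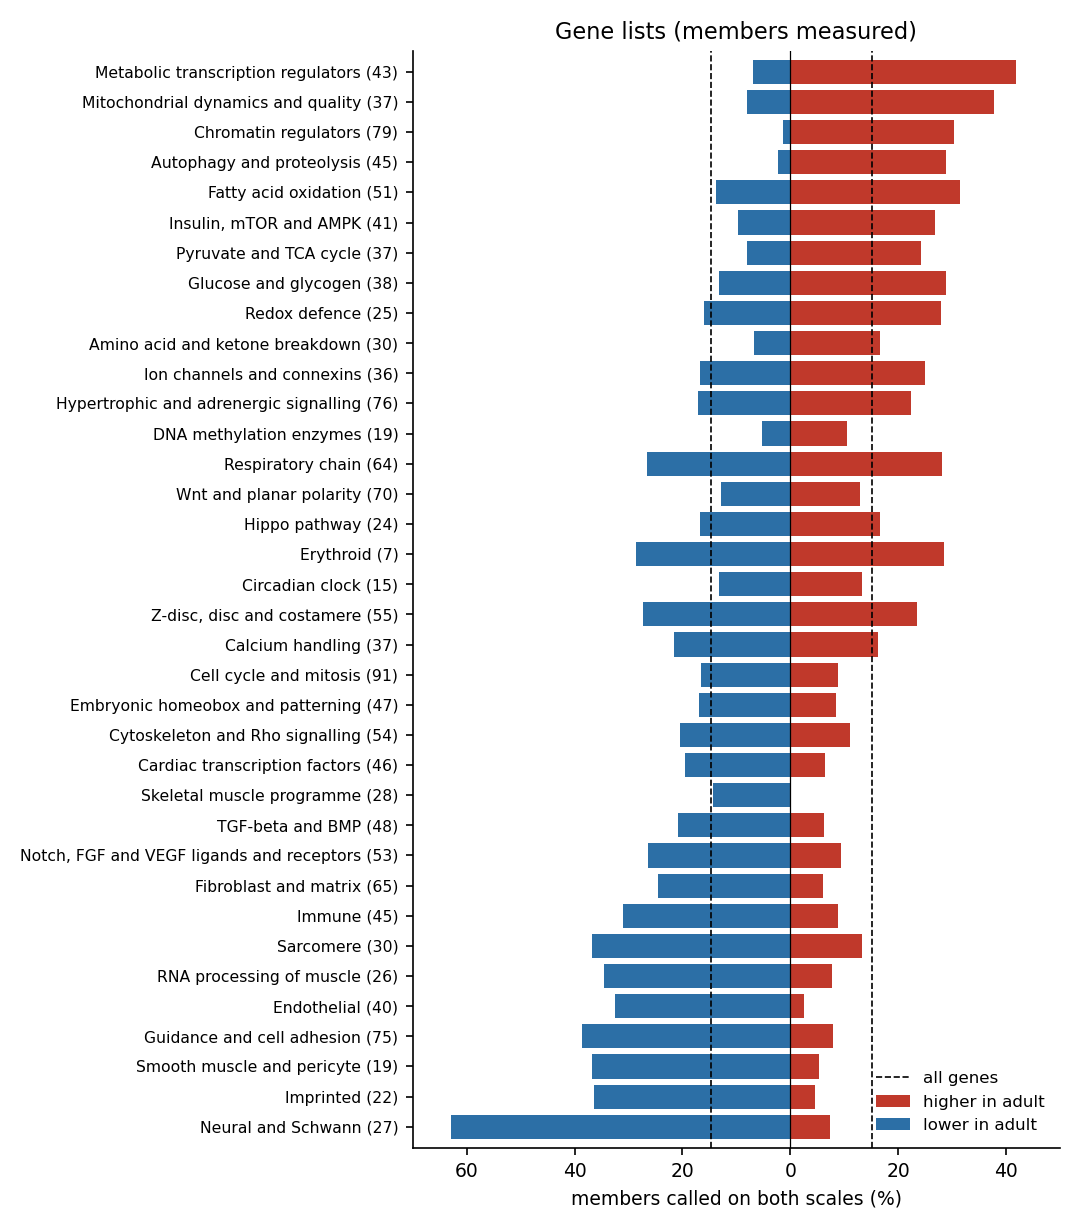
Percent of the measured members of each of 36 gene lists (number of members in brackets) that were higher (red, to the right) or lower (blue, to the left) in adult CMCs on both scales, with dashed lines at 15.2% higher and 14.8% lower over all genes. Metabolic transcription regulators, with 18 of 43 genes higher and 3 lower, stand at the top and the neural and Schwann list, with 2 higher and 17 lower, at the bottom.

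Of the 36 lists, 14 held more higher than lower genes, 18 more lower than higher, and 4 as many of each. In 33 lists more genes were separated by stage than by either mixed grouping. The same held over all genes, with 30% separated by stage and 16.2% and 13% by the mixed groupings. The imprinted genes were among the lower lists, with 8 of 22 lower and 1 higher, Gnas and Plagl1 among the former, as were the RNA-processing genes of muscle, with 9 of 26 lower and 2 higher. Rbm20, the splicing regulator of titin, had 35.7% and 47.9% in neonatal and 13.1% and 21% in adult CMCs, and Rbpms 58.4% and 70.6% against 42.7% and 39.6%.

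Families taken from the gene symbols or from words of the gene description were counted in the same way, and were chosen after the values were seen. Of 213 genes with the word mitochondrial in their description 62 were higher (29.1%) and 17 lower (7.98%), and of 50 genes of the mitochondrial ribosome 15 were higher and 1 lower. Of 48 MAP kinase genes 13 were higher and 1 lower, and of 177 genes with the word ubiquitin 49 were higher (27.7%) and 17 lower (9.6%). Of 87 cytochrome P450 genes 27 were lower (31%) and 4 higher, and of 22 dynein genes 11 were lower and 3 higher. Dynein genes are long (median 202 kb), and 48.1% of all genes of 200 kb or more were lower on both scales. Of 33 acyl-CoA enzyme genes (Acad, Acot and Acs) 7 were higher and 6 lower. Receptor genes as a whole, 1050 by description, were 9.81% higher and 17.8% lower. Olfactory receptor genes gave 0 higher and 3 lower of the 46 measured among 1101. Of the 46, 27 had no peak in any of the 4 lists and so could not be called.

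Gene length and CpG content went with the direction. Genes lower in adult CMCs had a median length of 52 kb and genes higher 24.5 kb, beside 25.3 kb over all genes. Without scaling, 9% of genes of 5 to 10 kb and 59.6% of genes of 200 kb or more were lower, and with scaling 7.67% and 48.4%. The share of higher genes went from 13.7% to 6.57% over the same classes without scaling, whereas with scaling it was 19.6% and 20.7%. The part of the number of peaks per gene in these shares was not tested. CpG content was 0.995 per 100 bp in the median lower gene and 1.41 in the median higher gene. Within genes of 20 to 50 kb the share of higher genes was 5.78% where CpG content was lowest (quartile 1) and 24.5% where it was highest (quartile 4), and the share of lower genes 15.8% and 8.73%.

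The difference was spread along the gene body and was larger there than upstream of it. With the body cut into 10 equal bins, bin 2 of the genes that were higher was under peaks for 9.07% and 9.97% in neonatal and 18% and 19.5% in adult CMCs, and bin 10 for 6.74% and 7.89% against 14.8% and 19.2%. In the 2.5 kb just upstream the values were 6.13% and 7.15% against 6.59% and 7.76%. In the lower genes bin 4 had 9.45% and 10.7% against 2.98% and 3.99%. Exons of the higher genes went from 7.78% and 8.54% to 16.2% and 20.8% and their introns from 7.51% and 8.53% to 12.3% and 14.3%. These values follow from how the genes were chosen and describe where along them the peaks lay.

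**Figure D5:**
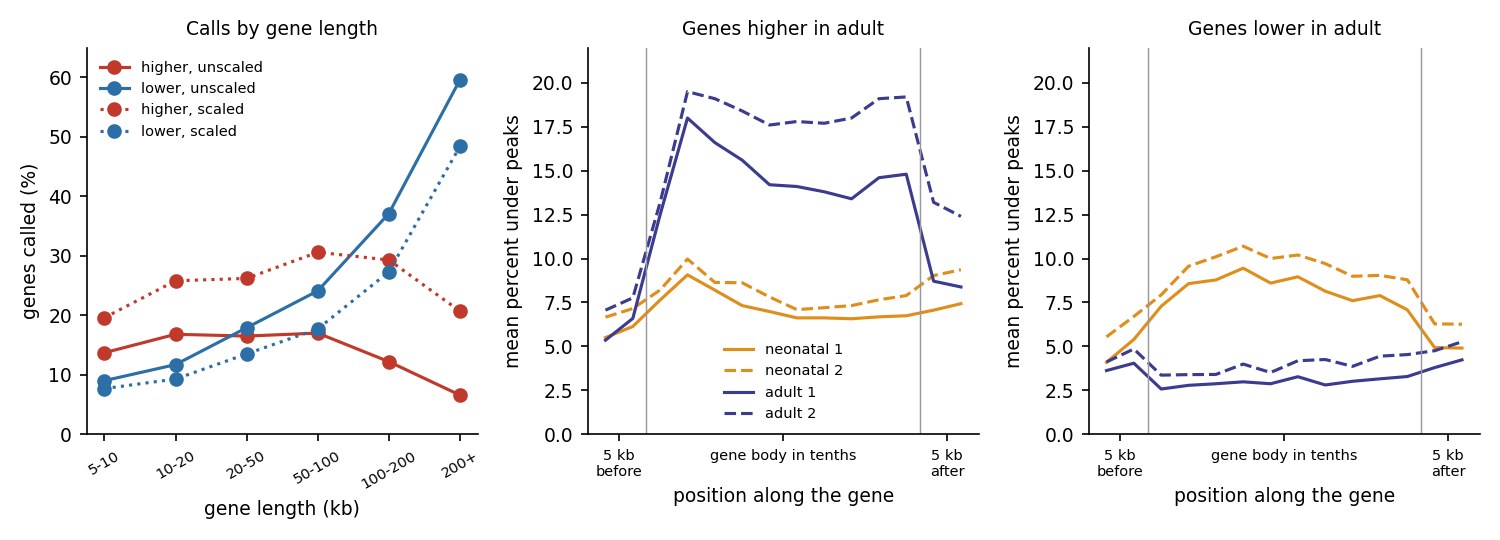
Left, percent of genes called higher (red) or lower (blue) in adult CMCs by gene length in kb, without scaling (solid) and with scaling to total peak base pairs (dotted). Middle and right, mean percent under peaks in each list along the genes higher or lower on both scales, in 2 bins over the 5 kb before the gene, 10 equal bins of the body and 2 bins over the 5 kb after it, with replicate 1 solid and replicate 2 dashed. Genes of 200 kb or more were lower in 59.6% without and 48.4% with scaling, and the stages lie apart within the body.

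Neighbouring genes tended to share a direction. Among higher genes whose next gene lay within 50 kb, that gene was higher in 20.7% and lower in 10.4%, beside 17% and 12.8% over all such pairs, and among lower genes it was higher in 13.9% and lower in 18.9%. Acadvl and Dvl2 lie next to each other on chromosome 11 and share a block of adult peaks that runs across both, so they do not count as separate observations.

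The lists of E14.5 and TAC CMCs were not used to call the genes. Of all genes, both TAC values lay above both E14.5 values in 1920 (12.4%) and below them in 3108 (20.1%). Of the genes higher in adult CMCs, TAC lay above E14.5 in 725 (30.8%) and below in 131 (5.57%). Of the genes lower in adult CMCs, TAC lay above in 74 (3.22%) and below in 1072 (46.7%). TAC replicate 2 stood apart, with a mean coverage of 4.41% beside 6.99% in TAC replicate 1, and with replicate 1 alone the shares were 67% above and 8.89% below for the higher genes and 11.1% and 64.1% for the lower, beside 33.8% and 28.5% over all genes. Myh6 had 43.2% and 32.4% at E14.5 and 9.65% and 8.54% after TAC, Ankrd23 74.4% and 69.4% against 36% and 0%, and Glul 0% in both E14.5 lists against 49.7% and 14.7%. Cish did not follow its neonatal level before birth, with 13.7% and 10.8% at E14.5 beside 58.5% and 72.5% in neonatal CMCs, nor did Tnni1, with 30.4% and 33.6% at E14.5 beside 18.6% and 13.7%.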

How the data were processed

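5-hmC was profiled by hMeDIP sequencing of isolated CMCs, with 2 biological replicates per stage by the study's methods. The labels do not tie them to animals, so p-values measure the spread between these samples. The authors aligned reads to mm10 with BWA (0.7.4-r385 in the submitters' processing notes), used Picard for duplicates, left out reads mapped with low quality and, for each replicate, called enriched regions over input with HOMER findPeaks in histone mode. The deposited files give chromosome, start and end of each peak and a score column in which the authors' files hold the same value for every peak, so peaks could not be ranked. The depth behind each list is unknown, so no interval that needs it is given.

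From the lists, percent of each gene under merged peaks was computed with Python 3.11.15 and numpy 2.4.6, checked against bedtools 2.31.1 on simulated intervals. Genes were the span of curated RefSeq transcripts (GRCm38), on 19 autosomes, of 5 kb or more. Scaling multiplied each percent by the mean total peak base pairs of the 4 lists over that of the list. limma 3.58.1 (R 4.3.3, trend, Benjamini-Hochberg) was run on log2(percent + 1) for genes with a mean of at least 1%. The fit was tested on simulated data. Single values per list were compared by the exact permutation test, whose smallest p is 0.333.

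The comparison, its gene lists and the rule for named genes were chosen with earlier results of these data known, and the symbol and description families after the values were seen. Named genes were, per direction, the 8 with the largest difference in percent and the 8 in base pairs, the 3 largest of each list, and a set of genes always given (Myh6, Myh7, Ppara, Gata6, Xirp2, Gata4, Mef2a, Mef2c, the Tet genes, Tnni1, Tnni3, Vim, Col1a2 and Tcf21); Tnni3 and Tcf21 are under 5 kb and were not measured. Replicate numbers were not used to pair the samples in the main comparison. Deviations of same-numbered lists from their stage means correlated at 0.0526 over genes, and a correlation does not see a shift shared by all genes. Whether same-numbered lists were prepared together was not tested. Input and sh-control libraries were not analysed here, and some genes chosen by the rule are not reported here.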

Additional observations from a re-analysis of the deposited data

How the results depend on the processing

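The counts of 2353 higher and 3064 lower genes were computed under each alternative. The higher count moved by more than 1.5 times with scaling (3952) and when the same number of peaks, 103752, was drawn once at random from each list (3668). The lower count moved to 1842 with equal numbers of peaks and to 1935 with a gap of at least 1 percentage point. With that gap, 24 of the 219 genes chosen by the naming rule lost their direction. Leaving out each replicate in turn, which leaves a single list for that stage, gave 3235 to 5322 higher and 4031 to 5774 lower genes. Of the genes called on both scales, equal numbers of peaks kept 2157 of 2351 higher and 1508 of 2295 lower genes, and peak centres per kb 1367 and 1827. Other length limits, the gene without its promoter, genes that overlap no other gene and GENCODE M21 left both counts within 1.5 times. Lists with more higher than lower members numbered 11 without and 22 with scaling, and those with more lower 21 and 13. The excess of higher genes in the longest over the shortest class turned from -7.13 to 1.1 percentage points with scaling. The cause of these moves was not tested.

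With the replicate block, counting genes ordered alike within both same-numbered pairs, 3351 were higher and 4121 lower, and limma with the block called 0 and 0. limma without the filter called 30 higher and 90 lower of 15498 genes. Leaving out each list gave 0 to 430 higher and 0 to 464 lower genes in limma, 464 lower without neonatal replicate 1 and 430 higher without adult replicate 1, and there the lone list is assumed to vary like the other stage. The pseudocounts, scaling and all 8 lists gave 0.

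The difference between stage means turned sign in the following named genes. Differences are in percentage points, except where they are of peak centres per kb. Mef2c, at -0.14, went to 1.84 with scaling and ranged from -0.672 to 0.391 when each replicate was left out, the latter without neonatal replicate 2. With equal numbers of peaks Nqo1 came to 3.09, Sparc to 1.82, Nos3 to 1.1, Adcy6 to 25.5 and Tet2 to 0.0291. In peak centres per kb, Acadvl came to -0.191, Fh1 to -0.0412, Klf9 to -0.0186, Ncapd2 to -0.0424, Sema3b to -0.0432, Foxo3 to -0.0316, Cox4i1 to 0.0835, Rbpms to 0.0272, Tpm1 to 0.0563, Amotl2 to 0.032, Unc5b to 0.00725, Akap1 to 0.0296, Eif4ebp1 to 0.13 and Tet2 to 0.00619. In the genes of this last measure the means of coverage and of peak centres went opposite ways. Only in Foxo3 did the peak centres of the stages not overlap. As alternatives chosen after seeing the data, genes higher in adult that lay the same way between E14.5 and TAC numbered 725, 1112 with scaling and 1576 without TAC replicate 2, and those lower 1072, 759 and 1470. The shares were 30.8%, 47.3% and 67% of the higher genes, beside 12.4%, 22.4% and 33.8% of all genes with TAC above E14.5. They were 46.7%, 33.1% and 64.1% of the lower genes, beside 20.1%, 13.2% and 28.5% of all genes with TAC below.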
